A study of Schizosaccharomyces pombe with 14 samples.

Results

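The nuclear genes of respiration and ATP synthase were followed in fission yeast (Schizosaccharomyces pombe) as cells went without phosphate. They are the protein-coding genes of the nucleus whose name is cox, qcr, atp or sdh and a number, or is cyc1, cyt1 or rip1, and there were 52 of them among 5124 protein-coding genes and 6988 identifiers counted in all. The rule used names only and no measured value, but it was chosen with earlier results of these data known. By role they comprise 3 subunits of complex II (sdh1, sdh2, sdh3), 9 of complex III (qcr1, qcr2, qcr6, qcr7, qcr8, qcr9, qcr10, cyt1, rip1), cytochrome c (cyc1) and 8 subunits of complex IV (cox4, cox5, cox6, cox7, cox8, cox9, cox12, cox13). ATP synthase has 5 subunits of its catalytic F1 head (atp1, atp2, atp3, atp15, atp16) and 8 of its stalk and membrane part (atp4, atp5, atp7, atp14, atp17, atp18, atp19, atp20). The other 18 are named for roles in building these complexes. They are sdh6, sdh7 and sdh8 for complex II, 10 for complex IV (cox10, cox1101, cox1102, cox14, cox16, cox17, cox18, cox19, cox20, cox24) and atp10, atp11, atp12, atp23 and atp25 for ATP synthase.

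Respiration passes electrons from succinate and NADH through ubiquinone, complex III, cytochrome c and complex IV to oxygen, and the proton gradient made on the way drives ATP synthase. Fission yeast has no complex I, and single-protein NADH dehydrogenases take its place. Most subunits are encoded in the nucleus and imported into mitochondria, where they are joined, with the help of assembly factors, to a few core subunits made from mitochondrial DNA. On plentiful glucose this yeast ferments as well as respires, and many of its respiratory genes are held at a lower level there than on other carbon sources.

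Polyadenylated RNA was sequenced from 2 strains at 7 times, with 3 replicate libraries for each of the 14 samples. The wild type is an h- strain, and the other is an h+ strain in which natMX replaces maf1, whose protein is known to hold RNA polymerase III in check. Each genotype is represented by a single strain. At 0 h both strains were in log phase in the rich medium YES, and at 4, 8, 12, 24, 36 and 48 h they were in the synthetic medium ePMGT(-PO4), which lacks phosphate, so that the change of medium and the loss of phosphate cannot be told apart. The labels call the cultures growth-limited from 4 to 12 h and quiescent from 24 to 48 h. Genotype, mating type and sequencing depth change together between the strains and cannot be told apart.

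Wild-type libraries held 12157201 to 26359389 counts (median 18088943) and deletion libraries 33249827 to 42808200 (median 36826375), and the 52 genes took 1.13% to 2.18% of a library. The maf1 level was 20.9 to 106 CPM (counts scaled by TMM to a common library size) in the 21 wild-type libraries and 1.59 to 7.13 CPM in the 21 deletion libraries. The 36 identifiers encoded on mitochondrial DNA, the core subunits among them, were listed without counts in every library, so the core subunits were not measured. A CPM value is a share of a library, so fewer cells of a kind and less RNA per cell cannot be told apart. Since gene lengths were not used, levels are compared between samples of a gene and never between genes.

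The 6 starved times were joined into an early stage (the mean of 4, 8 and 12 h) and a late stage (the mean of 24, 36 and 48 h), each with 9 libraries per strain. edgeR's quasi-likelihood test was fitted to all 42 libraries, and p-values were adjusted by the Benjamini-Hochberg method over the 6521 genes that passed a filter on low counts. All 52 genes passed that filter. A gene is said to have risen, fallen or differed where its adjusted p was under 0.05 at any size of change, and to be called higher or lower where the change was also at least 2-fold, a log2 change of 1. Most of all genes tested passed in the starved stages against 0 h, so each count is read against the share of all genes that did the same. Where a count under another scaling or set of libraries stands without that share, it shows only how far the count moved. Nothing states that the 3 replicates were separate cultures, so a p-value here covers no more than the spread among the libraries of a sample, which may be technical. No gene of the 52 changed by 2-fold or more without passing the test, so that each count of 0 calls below is also 0 at an unadjusted p under 0.05.

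In the wild type the subunit genes rose as a body early in starvation and stayed up. The largest change was that of cox8, which encodes a small subunit of complex IV. Its mean level was 31.5 ± 0.86 CPM (SD, n = 3) at 0 h, 152 ± 0.53 CPM at 12 h and 198 ± 19.3 CPM at 36 h. Early in starvation 44 of the 52 genes rose and 8 fell, where 45.5% of all genes rose and 43.3% fell. At 2-fold, 14 were called higher and 1 lower, where 19.6% of all genes were called higher and 18.9% lower. The median log2 change was 0.65 over the 52 genes and 0.04 over all genes tested. With libraries scaled by size alone, which lowers the median early change of all genes by 0.181 on the log2 scale, 6 were called higher and 2 lower.

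Late in starvation 39 of the 52 wild-type genes stood above 0 h and 9 below it, where 45.2% of all genes rose and 45.2% fell. At 2-fold 17 were called higher (22% of all genes) and 2 lower (20.1%). The median log2 change was 0.82, and 0.00 over all genes tested. From the early to the late stage 27 rose (41.4% of all genes) and 19 fell (40.2%). None was called higher (6.62%) or lower (6.16%) in that step by edgeR's quasi-likelihood test or by DESeq2. Single times could differ by more, and from 8 h to 48 h the log2 changes of the 52 ran from -1.37 to 0.72.

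The rise belonged to subunits more than to assembly factors, a split made after the values had been seen and given here as a description. All 34 subunit and cytochrome c genes rose early in the wild type and 32 were still above 0 h late, with medians of 0.85 and 0.97 on the log2 scale. Of the 18 assembly factors, 10 rose and 8 fell early, and 7 rose and 8 fell late, with medians of 0.11 and -0.08. Scaled by library size alone the medians of the factors were -0.07 and -0.35, and those of the subunits 0.67 and 0.70, so that the early median of the factors changes sign and that of the subunits does not. At 48 h the subunits' median change in the wild type was 0.94, and at 8 h it had been 0.95. In 21 of the 34 the highest mean level came at 36 h and in 9 at 8 h.

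**Figure D1:**
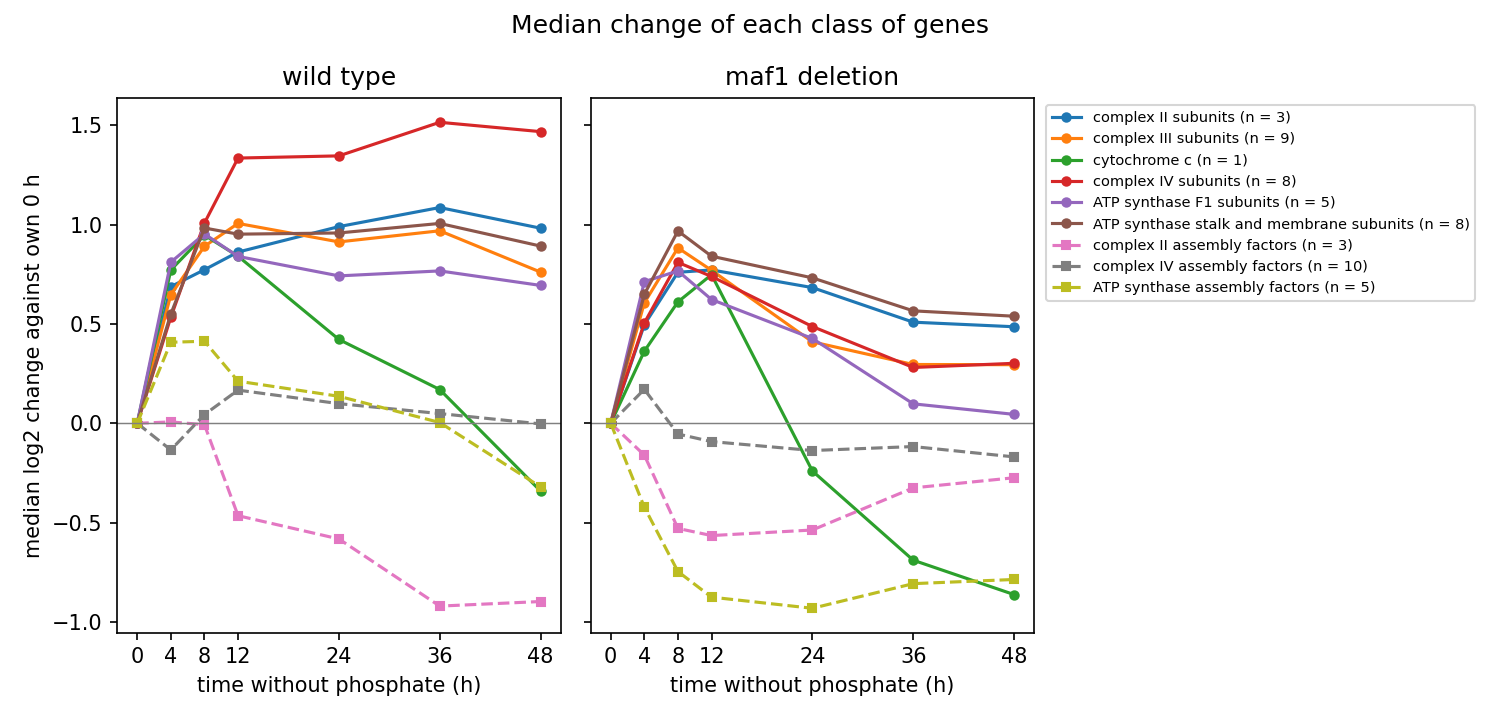
Median log2 change of each class of genes against the same strain's 0 h (vertical axis) by hours without phosphate (horizontal axis), wild type on the left and maf1 deletion on the right. Solid lines are subunits and dashed lines assembly factors. In the wild type the complex IV subunits reach the highest medians, 1.51 at 36 h, and in the deletion every class of subunits is lower at 48 h than at 8 h. Wild-type medians are also lower at 48 h than at 8 h for complex III (0.76 after 0.89) and the F1 subunits (0.69 after 0.95). The same holds there for the stalk and membrane subunits (0.89 after 0.98) and cytochrome c (-0.34 after 0.95), while complex II and complex IV subunits are higher.

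In the maf1 deletion strain the same subunits rose early but did not hold their level. Of the 52 genes, 37 rose early and 10 fell, where 44.5% of all genes rose and 43.8% fell in that strain. At 2-fold 2 were called higher (18.7% of all genes) and none lower (16.3%). This count depends on the scaling, with 4 called higher by TMM from protein-coding genes (19.9% of all genes) and 7 by library size alone (20.8%). Under the latter the wild type had 6 called higher early (16.2%), so that the larger early count of the wild type was not seen there. Without the 4 h libraries, an alternative added after the data were seen, 6 were called higher and 1 lower. The median log2 change was 0.55, against 0.01 over all genes tested. Late in starvation 29 rose (44.7%) and 17 fell (45.6%), 3 were called higher (22.6%) and 3 lower (18.7%), and the median was 0.14 beside -0.01 over all genes. With TMM taken from protein-coding genes, 32 rose and 11 fell, and 4 were called higher and 1 lower.

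From the early to the late stage the deletion strain lost part of the early rise. In that step 42 of the 52 fell and 7 rose, where 44% of all genes fell and 43.8% rose. A single gene, cyc1, was called lower (6.29% of all genes) and none higher (13.2%). The 34 subunit and cytochrome c genes had a median log2 change of 0.84 at 8 h, 0.48 at 24 h and 0.32 at 48 h against 0 h. In 25 of the 34 the highest mean level was at 8 h. Between 8 h and 48 h the mean level moved down in 32 of the 34 in the deletion and in 14 of the 34 in the wild type, with median log2 changes of -0.48 and 0.06.

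**Figure D2:**
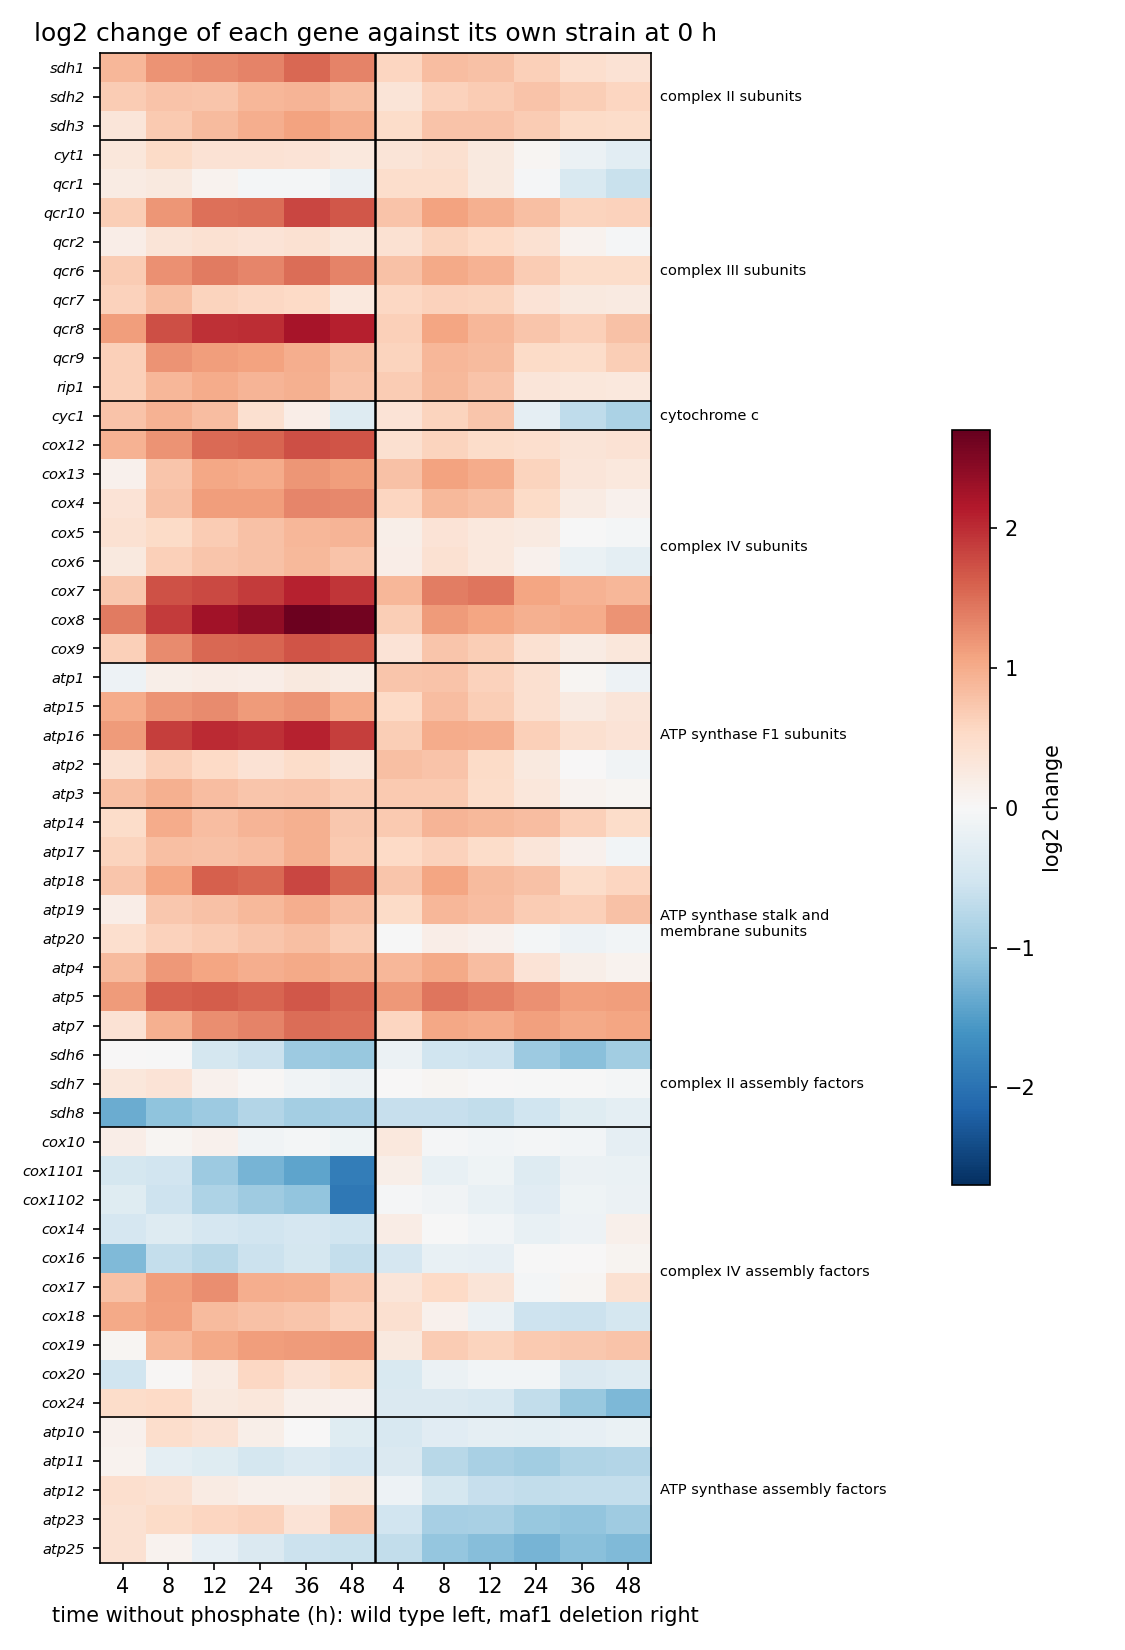
log2 change of each of the 52 genes against 0 h of the same strain (colour, red higher and blue lower) at 4 to 48 h without phosphate, wild type in the left columns and maf1 deletion in the right columns, with genes in rows by class. Subunit rows are red through 48 h in most of the wild type, and most of them are paler at 36 and 48 h in the deletion. Exceptions in the deletion include cox8, atp5 and atp7, still at 1.21, 1.125 and 1.06 at 48 h. The row of cyc1 turns blue late in the deletion, and the assembly factors are mixed.

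Complex II, succinate dehydrogenase, is also an enzyme of the tricarboxylic acid cycle. sdh1 (SPAC1556.02c) encodes its flavoprotein subunit. Wild-type sdh1 stood at 636, 609.6 and 649 CPM at 0 h, at 1104 to 1585 CPM early (median 1452) and at 1470.5 to 1962 CPM late (median 1661). In the deletion it stood at 835, 880.4 and 839 CPM at 0 h, at 1233 to 1556 CPM early (median 1448) and at 1064 to 1394 CPM late (median 1165). Every starved library was above every 0 h library of its strain, and late in starvation the strains did not overlap, with the wild type higher. The log2 change was 1.13 (SE 0.044, adjusted p = 8e-24) early and 1.41 (SE 0.045, adjusted p = 1.06e-26) late in the wild type, and 0.73 and 0.50 in the deletion, short of 2-fold.

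The iron-sulphur subunit gene sdh2 (SPAC140.01) is the exception among the 3. Its 0 h levels were 299.5, 288 and 309 CPM in the wild type and 395, 449.9 and 432 CPM in the deletion. Late levels were 506 to 579.6 CPM (median 548) in the wild type and 609 to 765 CPM (median 669) in the deletion, after early levels of 468 to 527 CPM (median 502) and 536 to 703 CPM (median 657). The deletion was the higher strain at 0 h and in both stages, with no overlap in any of the 3. The late rise of sdh2 was 0.88 in the wild type and 0.67 in the deletion on the log2 scale, and neither reached 2-fold.

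For sdh3 (SPCC330.12c), which encodes a membrane anchor subunit, the 0 h levels of the strains overlapped, at 335, 317 and 366 CPM in the wild type and 335, 352 and 347 CPM in the deletion. Early levels overlapped too, at 415 to 632 CPM (median 551) and 468 to 598 CPM (median 578). Late in starvation the wild type was at 629 to 726 CPM (median 685) and the deletion at 467 to 567 CPM (median 497), with no overlap. Wild-type sdh3 was called higher late (log2 1.02, SE 0.037, adjusted p = 8.19e-25) by a narrow margin. The call was lost, at log2 0.95 to 0.99, with DESeq2, with any other scaling except library size alone (0.75, also lost), with no filter, and without replicate 1 or 2 of wild-type 0 h.

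Complex III, the cytochrome bc1 complex, moves electrons from ubiquinol to cytochrome c. All 9 nuclear subunits rose early in both strains, with median log2 changes of 0.85 in the wild type and 0.78 in the deletion, and qcr8, qcr10 and qcr6 moved most in both strains. qcr8 (SPAC1782.07), a small subunit, began at 123, 122 and 124 CPM in wild-type libraries, and was at 263 to 499 CPM early (median 419) and at 474 to 608 CPM late (median 542). In the deletion qcr8 started at 303, 268 and 281 CPM, and was at 434 to 625 CPM early (median 538) and 432 to 515 CPM late (median 471). The strains were apart at 0 h and overlapped in both starved stages. The late log2 change was 2.11 (SE 0.049, adjusted p = 4.87e-31) in the wild type, a 4.32-fold rise, and 0.73 (SE 0.044) in the deletion.

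Wild-type qcr6 and qcr10 also stood at higher levels late than at 0 h. qcr6, for an acidic subunit, had 0 h levels of 233, 236 and 236 CPM and a late median of 606 CPM, log2 1.39. qcr10 went from 90.0, 94.3 and 99.2 CPM to a median of 305 CPM, log2 1.67, and its antisense partner held 7.88% as many counts as qcr10 in the late deletion libraries and 0.702% to 2.53% in the other groups. Both were called higher in both stages of the wild type and in neither stage of the deletion, where the late changes were 0.56 and 0.68. qcr7 and qcr9 rose without reaching 2-fold, with late wild-type changes of 0.47 and 0.95.

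Of the subunits of complex III that carry redox centres, cyt1 moved less than the class median and rip1 stood at it in the wild type. cyt1 (SPBC29A3.18), cytochrome c1, began at 529.7, 535 and 533 CPM in wild-type libraries and was at 654 to 759 CPM early (median 700.4) and 629 to 711 CPM late (median 677). In the deletion it was at 658, 595 and 598 CPM at 0 h, 726 to 879 CPM early (median 790.4) and 500.4 to 658 CPM late (median 548). Early levels were above 0 h in every library of both strains, and the late deletion libraries overlapped those of 0 h. The late log2 change was 0.34 (SE 0.033, adjusted p = 3.2e-12) in the wild type and -0.12 (SE 0.032, adjusted p = 4.3e-04) in the deletion.

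rip1 (SPBC16H5.06), the Rieske iron-sulphur protein, began at 305, 286 and 303 CPM in wild-type libraries and at 363, 308 and 316 CPM in deletion libraries. Early levels were 456 to 606 CPM (median 552) and 508 to 632 CPM (median 562). Late levels were 491 to 597 CPM (median 560.1) in the wild type and 381 to 422 CPM (median 413) in the deletion, so that the strains overlapped early and were apart late. Its late change was 0.88 in the wild type and 0.30 in the deletion on the log2 scale. The genes of the larger core proteins also showed small late changes. For qcr2 the late change was 0.36 in the wild type and 0.16 in the deletion. For qcr1, which the deposited annotation also names as the beta subunit of the mitochondrial processing peptidase, it was -0.09 in the wild type and -0.34 in the deletion.

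Cytochrome c, the soluble carrier between complexes III and IV, took a course of its own. Wild-type cyc1 (SPCC191.07) was at 565, 563 and 573 CPM at 0 h, 941 to 1119 CPM early (median 1023) and 429.7 to 793 CPM late (median 626). Deletion cyc1 was at 728, 684 and 661 CPM at 0 h, 866 to 1189.9 CPM early (median 1090.4) and 353 to 601 CPM late (median 446). No early library overlapped a late library of its strain, and the late deletion libraries were all below those of 0 h.

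The mean of wild-type cyc1 was highest at 8 h, 1094 ± 26.6 CPM, and lowest at 48 h, 448 ± 15.8 CPM. In the deletion it was highest at 12 h, 1161 ± 27.9 CPM, and lowest at 48 h, 380 ± 26.3 CPM. From the early to the late stage cyc1 fell in both strains, by 0.77 on the log2 scale in the wild type and by 1.17 (SE 0.033, adjusted p = 2.86e-28) in the deletion, the single call in that step. Against 0 h the late log2 change was 0.08 in the wild type, which did not pass the test (SE 0.046, adjusted p = 0.0844), and -0.60 in the deletion.

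Complex IV, cytochrome c oxidase, passes the electrons to oxygen. Its 8 nuclear subunits had the largest median changes of any class in the wild type, 0.96 early and 1.44 late on the log2 scale, and all 8 rose in both stages. In the deletion the medians were 0.67 and 0.35. These subunits surround the mitochondrially encoded core and carry no redox centre.

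cox8 (SPAC24C9.16c) had the largest change of the 52 genes in both stages of the wild type. Its wild-type levels were 32.1, 30.5 and 31.8 CPM at 0 h, 78.7 to 153 CPM early (median 115) and 155 to 219 CPM late (median 184). Its deletion levels were 62.6, 59.2 and 57.8 CPM at 0 h, 91.1 to 139 CPM early (median 127) and 107 to 140.0 CPM late (median 127). In the wild type the 3 periods did not overlap, and in the deletion the starved stages overlapped each other but not 0 h. The wild-type log2 change was 1.85 (SE 0.063, adjusted p = 1.04e-25) early and 2.55 (SE 0.064, adjusted p = 6.22e-30) late. In the deletion it was 0.96 early and 1.06 late (SE 0.055, adjusted p = 7.27e-20), the late value being a call that was lost at 0.98 without the 48 h libraries.

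The 0 h levels of cox13 (SPCC1739.09c) overlapped between the strains. Its 0 h levels were 243, 234 and 242 CPM in the wild type and 250.1, 218 and 222 CPM in the deletion. It was at 252 to 514 CPM early (median 406) and 475 to 566 CPM late (median 523) in the wild type, and at 373 to 514 CPM early (median 453) and 274 to 353 CPM late (median 294) in the deletion. The 0 h difference was -0.06 (adjusted p = 0.238) on the log2 scale, and it passed the test, with the deletion lower, under each other scaling (-0.11 to -0.34). The late libraries of the strains did not overlap, and the late deletion libraries lay below the early ones. The late log2 change was 1.11 (SE 0.043, adjusted p = 4.54e-24) in the wild type and 0.41 (SE 0.041, adjusted p = 8.14e-12) in the deletion. At 4 h the change was 0.11 in the wild type and 0.79 in the deletion.

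**Figure D3:**
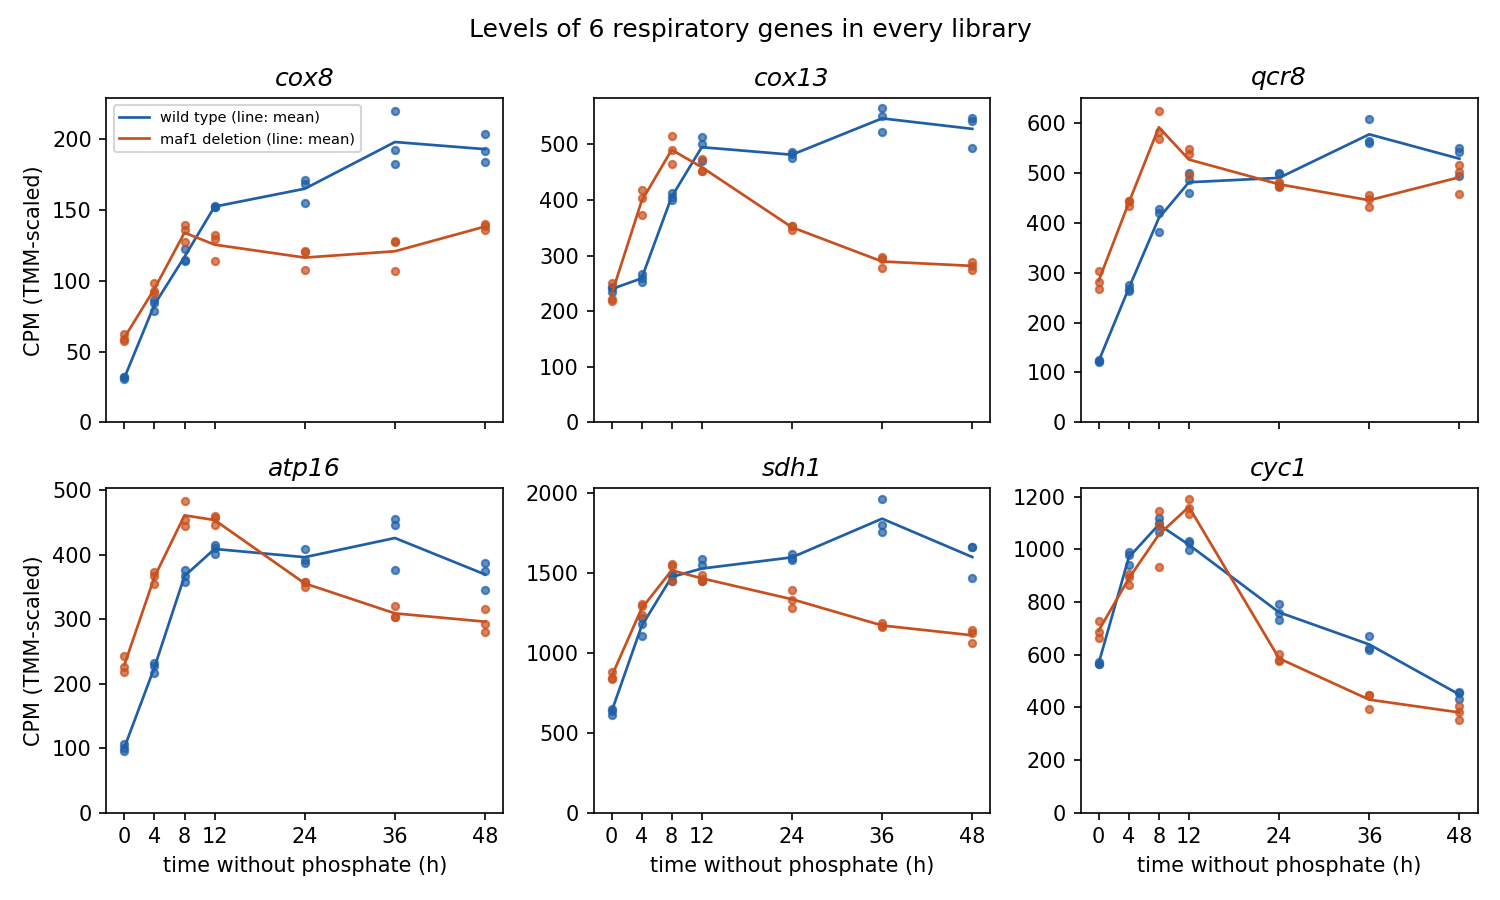
Level in CPM scaled by TMM (vertical axis, from 0) of 6 genes by hours without phosphate (horizontal axis), with a point for each of the 3 libraries of a sample and a line through the means, wild type in blue and maf1 deletion in orange. For cox8 the wild type runs from a mean of 31.5 to 198 CPM and the deletion from 59.9 to 138 CPM. The lines of the strains cross between 8 and 24 h for all 6 genes.

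The other 6 complex IV subunits rose to different extents. cox7 went from 53.9, 51.0 and 55.0 CPM to a late median of 212 CPM in the wild type (log2 1.96, SE 0.057, adjusted p = 6.87e-28) and from 78.3, 76.3 and 77.4 CPM to an early median of 198 CPM in the deletion (log2 1.25, SE 0.052, adjusted p = 9.13e-23). cox9 and cox12, the latter for a subunit that faces the intermembrane space, were called higher in both stages of the wild type, with late log2 changes of 1.64 and 1.67, and in neither stage of the deletion (late 0.32 and 0.40). cox4 was called higher late in the wild type (1.25). cox5 and cox6 stayed under 2-fold, with late changes of 0.87 and 0.81 in the wild type. In the deletion cox5 was at 0.06 late, which did not pass the test, and cox6 at -0.10.

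ATP synthase makes ATP in its F1 head, which a turning central stalk drives, and a peripheral stalk holds the head still. The gene for the delta subunit of the central stalk, atp16 (SPBC13E7.04), changed most among its subunits in the wild type. Wild-type atp16 was at 101, 96.3 and 106 CPM at 0 h, 217 to 415 CPM early (median 367) and 346 to 455 CPM late (median 388). In the deletion it was at 243, 218 and 226 CPM at 0 h, 355 to 484 CPM early (median 446) and 280.2 to 359 CPM late (median 316). The strains were apart at 0 h and overlapped in both starved stages, and every starved library was above 0 h of its strain. Its log2 change was 1.68 (SE 0.049, adjusted p = 1.15e-27) early and 1.97 (SE 0.050, adjusted p = 9.95e-30) late in the wild type, and 0.89 and 0.48 in the deletion.

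The subunits of the F1 head differed among themselves. atp15, for the epsilon subunit of the central stalk, was called higher in both stages of the wild type (1.16 and 1.12). The gamma subunit gene atp3 rose by 0.87 early and 0.73 late, short of 2-fold. The genes of the alpha and beta subunits, which form the catalytic ring, moved least, atp1 by 0.08 early and 0.22 late and atp2 by 0.53 and 0.41. In the deletion atp1 rose by 0.71 early and 0.12 late, from a 0 h mean of 862 ± 37.8 CPM, below the 1202 ± 45.2 CPM of the wild type.

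Of the 8 stalk and membrane subunits all rose in both stages of the wild type, with medians of 0.83 and 0.94. atp5, for the protein that ties the peripheral stalk to the head, was at 186, 179 and 181 CPM at 0 h and at a late median of 548 CPM in the wild type (log2 1.59, SE 0.041, adjusted p = 1.32e-29). In the deletion atp5 was at 219.7, 194 and 193 CPM at 0 h and at a late median of 449 CPM (log2 1.16, SE 0.039, adjusted p = 1.06e-25). It was the single gene of the 52 called higher in both stages of both strains. atp7, for another peripheral stalk subunit, was called higher late in the wild type (1.44) and late in the deletion (1.06). atp4 was called higher early in the wild type (1.03), a call lost at 0.99 without replicate 2 of wild-type 0 h and at 0.98 with only the groups compared.

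atp18 was called higher in both stages of the wild type, with log2 changes of 1.15 and 1.64. Its antisense partner held 121% as many counts as atp18 at wild-type 0 h and 11.2% to 48.3% as many in the other groups, and the strand setting of the counting is not given, so values of atp18 are uncertain. atp14, atp17, atp19 and atp20 rose without a call in either stage of the wild type, with late changes of 0.75 to 0.90. In the deletion atp20 was at 0.09 early and -0.09 late on the log2 scale, the smallest early change among these 8 subunits.

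Assembly factors gave no common direction. In complex II, sdh8 was at 53.3, 49.0 and 62.6 CPM at wild-type 0 h and at 20.8 to 28.9 CPM early (median 26.4), without overlap, a log2 change of -1.14 (SE 0.056, adjusted p = 1.73e-20) and the single early call downwards. sdh6 was at 53.8, 49.4 and 48.6 CPM at 0 h in the deletion and at 21.5 to 26.9 CPM late (median 25.6), a change of -1.02 that was called. sdh6 also fell late in the wild type, by 0.86 on the log2 scale. sdh7 changed by no more than 0.27 in any stage of either strain.

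Among the complex IV factors, the copper chaperone gene cox17 was called higher early in the wild type and cox19 late, and these were the factors called higher in any stage. Wild-type cox17 moved from 15.5, 16.3 and 16.5 CPM to an early median of 35.4 CPM (log2 1.06, SE 0.067, adjusted p = 3.32e-17). Wild-type cox19 moved from 14, 15.6 and 13.8 CPM to a late median of 32.2 CPM (log2 1.15, SE 0.060, adjusted p = 7.64e-20). cox17 lies next to sdh8 in the gene order of a reference of another assembly, ASM294v3, where no other pair of the 52 are neighbours, and sdh8 fell as cox17 rose.

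cox1101 and cox1102 are near-identical genes, each joining a copper-delivery factor to the mitochondrial ribosomal methyltransferase Rsm22, and their counts are uncertain because reads could be split between them. At wild-type 0 h they were at 9.43 to 11.4 CPM and 8.71 to 10.2 CPM, and late at 2.4 to 4.51 CPM and 1.8 to 5.22 CPM. Both were called lower late in the wild type, with log2 changes of -1.51 and -1.32. In the deletion the late changes were -0.23 and -0.19, of which the second did not pass the test. cox18, for a factor that inserts a core subunit into the membrane, rose by 1.00 early and 0.72 late in the wild type and was not called, and it fell by 0.54 late in the deletion.

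cox24, for a factor of mitochondrial RNA handling, rose by 0.42 early and 0.19 late in the wild type, and in the deletion it fell by 0.40 and 0.97. cox16 fell by 0.86 early in the wild type, and cox14 by 0.41. cox10, for the enzyme that makes haem O, changed by no more than 0.12 in any stage of either strain. cox20 rose by 0.48 late in the wild type and fell by 0.27 late in the deletion.

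The ATP synthase factors changed unequally from 0 h in the strains, while the median difference in level became smaller. The median log2 difference between the strains over the 5 was 0.83 at 0 h, -0.12 early and -0.01 late, the last turning to 0.01 to 0.03 under each other scaling. All 5 fell in both stages of the deletion (4 late with TMM from protein-coding genes), with medians of -0.67 early and -0.84 late on the log2 scale, where the wild-type medians were 0.33 and -0.06. atp23 was at 27.3, 24.6 and 25 CPM at 0 h in the wild type and at 31.8 to 47.0 CPM late, and at 58.6, 55.7 and 57.2 CPM at 0 h in the deletion and 26.8 to 30.4 CPM late. The starved levels lay above 0 h in the wild type and below it in the deletion. atp25 was at 65.0, 64.8 and 64.8 CPM at 0 h in the wild type and 123, 114 and 122 CPM in the deletion, and late at 39.2 to 49.9 CPM and 48.3 to 56.9 CPM. Late in the deletion atp23 (log2 -1.02) and atp25 (-1.20, SE 0.038, adjusted p = 8.9e-27) were called lower. The calls of atp23 and sdh6 were lost, at -0.91 to -0.99, under each other scaling, with DESeq2 and with only the groups compared, and that of sdh6 also without replicate 1 of deletion 0 h.

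Between the strains at 0 h, in rich medium, the deletion had higher levels of many of these genes. Of the 52, 39 were higher in the deletion and 4 lower, where 47.6% of all genes were higher and 36.1% lower. At 2-fold 4 were called higher (13.8% of all genes) and none lower (15.9%) by edgeR's quasi-likelihood test or by DESeq2. The 4 were qcr8 (log2 1.21, SE 0.053, adjusted p = 9.85e-22), atp16 (1.18), atp23 (1.15) and cox12 (1.05). The 4 that were lower were atp1 (-0.48), cox1101 (-0.66), cox1102 (-0.45) and cox14 (-0.31). The authors' deposited table gives log2 changes of 1.16 for qcr8, 1.13 for atp16, 0.88 for cox8 and -0.11 for cox13 in this comparison.

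This difference at 0 h depends on how the libraries are scaled. The median log2 difference was 0.33 over the 52 genes, 0.12 over all genes tested and 0.20 over the protein-coding genes tested. With DESeq2 size factors 37 were higher and 11 lower, and with TMM from protein-coding genes 34 and 11. With libraries scaled by size alone, 24 were higher and 17 lower, none was called, and the medians were 0.05 over the 52 and -0.16 over all genes. The median of the 52 lay above that of all genes under each of these scalings. Without replicate 1 of deletion 0 h, 7 were lower in place of 4. The call of cox12 was lost at 0.95 with TMM from protein-coding genes and at 0.93 with only the groups compared.

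Early in starvation the strains were close. Of the 52 genes, 34 were higher in the deletion (37.7% of all genes) and 4 lower (36.8%), with a median log2 difference of 0.14. None was called higher (2.35%) or lower (4.6%) by edgeR's quasi-likelihood test or by DESeq2. Without the 4 h libraries 7 were lower in place of 4. By time, the median over the 34 subunit and cytochrome c genes was 0.28 at 4 h, 0.20 at 8 h and 0.01 at 12 h.

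Late in starvation the deletion had lower levels of most subunit genes. Of the 52, 14 were higher in the deletion (41.8% of all genes) and 35 lower (43.6%). None was called higher (10.9%) or lower (6.62%) by edgeR's quasi-likelihood test or by DESeq2, so each difference of the stage means was under 2-fold. At single times the log2 differences of the 52 ran from -0.998 to 0.61 at 36 h and from -0.91 to 1.33 at 48 h. Among the 34 subunit and cytochrome c genes 30 were lower and 3 higher, with a median log2 difference of -0.33, beside -0.01 over all genes. The 3 that were higher were sdh2 (0.31), atp14 (0.33) and qcr7 (0.13). cox9 (-0.85, SE 0.030, adjusted p = 8.24e-25) and cox13 (-0.76) were lowest. This median kept its sign under each scaling, between -0.29 and -0.33. Of the 18 assembly factors 11 were higher in the deletion and 5 lower.

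The test of whether the strains responded unequally compares the change from 0 h in the deletion with that in the wild type. For the early stage 11 of the 52 genes had the larger log2 change in the deletion and 32 the smaller, where 34.9% and 47.2% of all genes did. None was called higher (15.6%) by edgeR's quasi-likelihood test or by DESeq2. The 2 called lower (15.6%) were the assembly factor genes atp23 (-1.27, SE 0.080, adjusted p = 6.31e-17) and atp25 (-1.05). The median was -0.18 over the 52, -0.13 over all genes and -0.18 over the protein-coding genes tested. Of those protein-coding genes 33.1% had the larger change in the deletion and 52.3% the smaller. Scaled by library size alone the median of the 52 turned to 0.10, with 23 larger and 16 smaller. No call was left under that scaling, and with TMM from protein-coding genes atp25 was at -0.98.

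For the late stage 5 had the larger change in the deletion and 42 the smaller, where 39.3% and 46.7% of all genes did. At 2-fold 2 were called higher (20.5%) and 9 lower (17.7%). The 2 are cox1101 (1.28) and cox1102 (1.13), the latter at 0.80 without the 48 h libraries. The 9 are the subunit genes atp16, cox8, qcr8, cox9, cox12 and atp18, with values from -1.50 to -1.01, and the assembly factor genes atp23 (-1.60), cox18 (-1.26) and cox24 (-1.16). The shares called in each direction were thus not above those of all genes in the upward direction (3.85% of the 52) and near them in the downward (17.3%), while the share that was smaller at any size was 80.8%. Scaled by library size alone, 5 were called lower (9.62% of the 52, beside 11.1% of all genes), and the calls of cox12 (-0.97), cox18 (-0.96) and cox24 (-0.86) were lost as well as that of atp18.

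The 0 h level enters this test. Among the 6 subunit genes called lower, the log2 difference between the strains at 0 h was 1.21 for qcr8, 1.18 for atp16, 1.05 for cox12, 0.93 for cox8, 0.48 for cox9 and 0.40 for atp18. In the late stage itself the difference was -0.17, -0.31, -0.22, -0.57, -0.85 and -0.61 in the same order. For qcr8, atp16, cox12 and cox8 the larger part of the unequal response thus lay in the higher 0 h level of the deletion, and for cox9 and atp18 in the lower late level. Over the 34 subunit and cytochrome c genes the median was -0.71, beside -0.09 over all genes and -0.22 over the protein-coding genes tested. Of the 34, 33 had the smaller change in the deletion, where 53.3% of those protein-coding genes did. The call of atp18 was lost, between -0.71 and -0.95, under each other scaling, with DESeq2 and with only the groups compared. It was also lost, between -0.96 and -0.997, without any of 6 single libraries (replicate 2 of wild-type 0 h, replicate 1 of wild-type 36 and 48 h and of deletion 0 and 48 h, and replicate 2 of deletion 36 h). Scaled by library size alone, which raises the median of all genes by 0.302, the median of the 34 was -0.40, with 24 smaller and 2 larger.

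**Figure D4:**
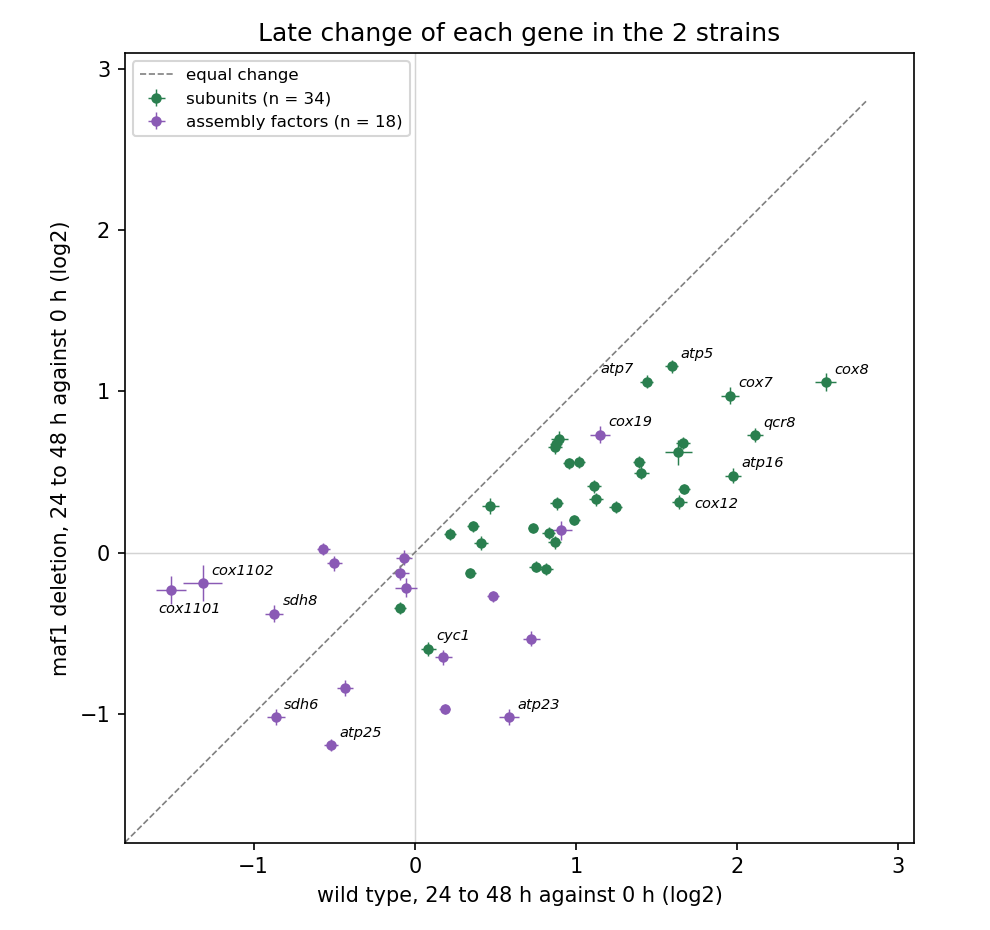
Late log2 change against 0 h of each of the 52 genes in the wild type (horizontal axis) and in the maf1 deletion (vertical axis), with standard errors as bars, subunits and cytochrome c in green (n = 34) and assembly factors in purple (n = 18). The subunits lie below the dashed line of equal change, with cox8 farthest to the right at 2.55 and 1.06, and cox1101 and cox1102 lie above it.

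Genes that feed or serve the same chain were counted from lists chosen with earlier results of these data known. Of 11 genes of the tricarboxylic acid cycle, 6 were called higher in the wild type both early (19.6% of all genes) and late (22%) and none lower, led late by mdh1 (malate dehydrogenase, log2 2.37), cit1 (citrate synthase, 2.27), kgd2 (1.57) and idh1 (1.47). In the deletion 7 were called higher early (18.7% of all genes) and 5 late (22.6%), and mdh1 was at 2.78 late. The late median of this list was 1.23 in the wild type and 0.98 in the deletion, where that of the 34 subunit and cytochrome c genes was 0.97 and 0.36. Of 5 pyruvate dehydrogenase genes, dld1 was called higher late in both strains (1.11 and 1.33). That is 20% of the list in each strain, near the 22% and 22.6% of all genes. The other 4 fell late in the wild type, while in the deletion 3 of the 5 rose late (44.7% of all genes) and 2 fell (45.6%). Between the strains late, all 5 were higher in the deletion (41.8% of all genes) and 2 were called higher (10.9%).

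Among 4 genes of other routes to ubiquinone, gut2, for glycerol-3-phosphate dehydrogenase, had a wild-type mean of 9.87 ± 0.897 CPM before starvation and of 188 ± 14.3 CPM at 4 h, and was called higher in both stages of the wild type (4.06 and 2.17). Deletion gut2 was at 29.7 to 37.6 CPM before starvation and at 352 to 447 CPM at 4 h, and was called higher early (2.84) but not late. ura3, the dihydroorotate dehydrogenase of pyrimidine synthesis, was called lower in both stages of both strains. In each wild-type stage 25% of this list was called higher and 25% lower. These are near the shares of all genes (19.6% and 18.9% early, 22% and 20.1% late). ndi1, an NADH dehydrogenase, was called higher in both stages of the deletion (1.49 and 1.02) from a 0 h level that was lower than in the wild type (-1.71). Of 9 genes of ubiquinone synthesis, 3 were called higher early in the wild type (among them coq4 1.29 and coq3 1.18, where 19.6% of all genes were) and 2 late (22% of all genes), and none in the deletion (18.7% early and 22.6% late). The late wild-type share of this list is near that of all genes.

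Of 18 further assembly factors 17 could be tested. In the wild type 4 were called higher and 2 lower early, where 19.6% and 18.9% of all genes were, and 3 higher and 3 lower late, where 22% and 20.1% were. The counts of higher calls and the late count of lower calls are near these shares. cmc4, named for a cysteine-motif protein of the intermembrane space, had the largest change. Its wild-type mean was 55.0 ± 4.16 CPM at 36 h, and its late log2 change was 5.57, measured from a low wild-type level at 0 h. In the deletion the mean of cmc4 was 8.35 ± 0.709 CPM before starvation, 42.4 ± 1.89 CPM at 8 h and 2.94 ± 1.02 CPM at 48 h. fmc1, for an ATP synthase assembly factor, was called lower late in the wild type (-2.50), and at 0 h it was at 200 ± 20.2 CPM there and 24.4 ± 1.54 CPM in the deletion strain. In the deletion none of the 17 was called higher late (22.6% of all genes) and 4 were called lower (18.7%), among them oxa102 (-1.87).

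Of 8 genes of haem synthesis, 2 were called higher late in the wild type (hem12 1.76, hem1 1.02) and 2 lower (hem13 -1.36, hem3 -1.32), near the 22% and 20.1% of all genes. In the deletion none was called higher late (22.6%) and 4 were called lower (18.7%). Of the 4 genes of the CCAAT-binding Php complex, in which php4 is known for repressing iron-using genes when iron is scarce, php4 was called higher late in both strains (1.63 and 1.10) and php2 late in the deletion (1.65). These calls were 25% of the list in the wild type, near the 22% of all genes. In the deletion they were 50%, where 22.6% of all genes were called higher. anc1, the ADP and ATP carrier of the inner membrane, was called higher in both stages of the wild type (1.55 and 1.05) and in neither of the deletion. inh1, for the inhibitor protein of ATP synthase, was called higher late in both strains (1.27 and 1.70) and early in the deletion (1.82). Early wild-type inh1 rose by 0.985, short of 2-fold. Of these 2 genes, 1 was called higher early and 2 late in the wild type, where 19.6% and 22% of all genes were. In the deletion 1 was called higher in each stage, where 18.7% of all genes were early and 22.6% late.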

How the data were processed

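The authors deposited a table of estimated counts per gene for 42 libraries, which are whole numbers except that 0.5 stands in place of 0 in 19110 of 293538 values (6.51%), and these were rounded to 0. Per the submitters' processing notes, the build was ASM294v2 and the tools were HTSeq 0.10.0, HISAT2 2.1.0, DESeq2 and SAMtools. How strand and multiply mapped reads were handled is not given in the sources used here. The authors' comparison tables hold log2 fold changes and p-values deposited per gene, with symbols and products, per the file headers. The 52 genes, their classes and the other lists were chosen with earlier results of these data known.

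Counts of the 1 duplicated identifier were summed. Genes were kept by filterByExpr with the 14 groups, and a quasi-likelihood model of edgeR 4.0.16 in R 4.3.3 was fitted with TMM and 28 residual degrees of freedom. DESeq2 1.42.0 was an alternative, as were other scalings, no filter, only the groups compared, a replicate block, a 1.5-fold threshold and each library left out. The rule of any size and the stages without 4 h or 48 h were added after the data were seen. Genes were named by a rule: every gene by class, values in every library for cox8, qcr8, atp16, cox13, cyc1, cyt1, rip1 and the sdh subunits, others where called or extreme in their class, and at most 4 of each other list. Replicate numbers did not pair the libraries, with a median correlation of same-numbered deviations of 0.06 to 0.072 within a strain. The script was tested on simulated data. No sequences are shown, as no genome of the build of the counts was used here.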

Additional observations from a re-analysis of the deposited data

Results flagged for a closer look

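Results where the maf1 deletion responded unlike the wild type by at least 2-fold, by a test of the difference itself in edgeR's quasi-likelihood model, are listed as log2 values of the deletion's change minus the wild type's. In the early stage these were -1.27 for atp23 and -1.05 for atp25, at -0.99 and -0.77 when libraries were scaled by size alone. atp25 was also under 2-fold with TMM from protein-coding genes. In the late stage atp23 was at -1.60, atp16 at -1.50, cox8 at -1.49, qcr8 at -1.38 and cox9 at -1.33. cox12 was at -1.27, cox18 at -1.26, cox24 at -1.16 and atp18 at -1.01, and these 4 were under 2-fold when libraries were scaled by size alone. The call of atp18 was also lost under each other scaling, with DESeq2, with only the groups compared and without any of several single libraries. cox1101 was at 1.28 and cox1102 at 1.13, both from low counts of near-identical genes.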

How the results depend on the processing

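Counts are of the 52 genes. In this section a count without a share of all genes beside it shows only how far it moved with the setting. The shares of all genes move as well, so such counts are not read as results about the 52. Scaled by library size alone, the wild type had 6 called higher and 2 lower early and 4 called lower late, and the deletion 7 called higher early and 1 lower late. Between strains none was called higher at 0 h (0), the difference in response had 0 called lower early and 5 late, and at any size 24 were higher and 17 lower at 0 h, 23 larger and 16 smaller in the early response, 9 larger in the late response and 4 higher in the deletion's step from early to late. TMM from protein-coding genes gave 4 called higher early and 1 lower late in the deletion, 1 called lower in the early difference, and at any size 11 lower late in the deletion and 11 lower at 0 h between strains. DESeq2 size factors, the DESeq2 Wald test and only the groups compared each gave 1 called lower late in the deletion and 11 lower at any size between strains at 0 h.

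At 1.5-fold in place of 2-fold, with the share of all genes in parentheses, 29 (30.2%) were called higher and 3 (28.2%) lower early in the wild type, 30 (31.7%) and 4 (30.8%) late, and 1 (13.4%) and 5 (12.3%) in the step. In the deletion 24 (28.3%) and 4 (26.6%) were called early, 11 (31.3%) and 7 (30.2%) late, and 7 (14.7%) lower in the step. Between strains 14 (27.9%) higher and 1 (23.4%) lower were called at 0 h, 1 (4.46%) higher early, and 3 (18%) higher and 6 (13.6%) lower late. In the difference of response 2 (22.7%) and 11 (28%) were called early and 26 (30.9%) lower late. Without 48 h, 1 was called higher in the late difference. Without 4 h, the deletion had 6 called higher and 1 lower early and 2 higher at any size in the step, and 7 were lower at any size between strains early.

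With each library left out in turn, the count lower at any size between strains at 0 h was 4 to 7. Called counts ranged from 13 to 16 higher early and from 16 to 17 higher late in the wild type, and from 8 to 11 lower in the late difference. Of the 60 single-gene calls none reversed. Under the alternatives other than left-out libraries 430 values kept the call and 47 lost it, 25 of these by library size alone, and 848 kept and 10 lost it with a library left out. A replicate block changed no count by over 1.5 times, the called counts being 14 and 17 higher early and late in the wild type, but the numbers did not pair the libraries. Depth limits cox1101 and cox1102, which had under 12 CPM in every library, and the cause of these changes was not tested.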
